A study of Mus musculus with 15 samples.

Results

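The circadian clock of the heart drives a set of transcription regulators that carry its rhythm to other genes, and 8 of them were followed here across every library: Dbp, Tef, Hlf, Nfil3, Ciart, Bhlhe40, Bhlhe41 and Rora. They are 8 of the 17447 genes in the deposited table, and all 8 were among the 13021 genes with enough counts to be tested. The members were chosen from clock results of these same data that were already known for both renalase comparisons, so their behaviour in those comparisons is given as a description and supports nothing further.

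In the clock, BMAL1 (gene Arntl) pairs with CLOCK or NPAS2 on E-box elements and switches on the Period, Cryptochrome and REV-ERB (Nr1d1, Nr1d2) genes, whose products turn the loop off again. Dbp, Tef and Hlf encode the PAR bZIP activators, which bind D-box elements in output genes such as those of metabolism, and Nfil3 (also called E4BP4) encodes a repressor of the same elements. Ciart (CHRONO), Bhlhe40 (DEC1) and Bhlhe41 (DEC2) encode repressors of BMAL1-driven transcription, and Rora encodes a nuclear receptor that activates Arntl through the element on which REV-ERB proteins repress it. In the heart the clock is known for its hold on fuel use, ion channels and the daily course of contraction.

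Hearts of 15 male C57BL/6J mice were measured by RNA-seq 18 weeks after surgery in 5 groups of 3 mice. WTSHAM hearts came from wild-type mice after a sham operation. WTCKD hearts came from wild-type mice with chronic kidney disease (CKD) made by subtotal nephrectomy and given the control vector, and WTCKD + RNLS hearts from wild-type CKD mice given AAV9-cTnT-RNLS, a virus that carries renalase (RNLS), a flavin-dependent secreted enzyme, under a cardiomyocyte promoter. KOCKD and KOCKD + RNLS hearts came from mice with both copies of the renalase gene disrupted by TALEN, with CKD, and given the vector or that virus. Mice were 6 to 8 weeks old at the start, and CKD mice were injected by the tail vein in week 2. No vector is stated for WTSHAM mice. No sham-operated knockout mice were among these samples, so CKD and the knockout could not be compared in a full crossing. The hour at which hearts were taken was not given in the sources used here, and its part in any value below was not tested.

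Library totals ran from 10480788 to 13424078 counted reads, with a median of 12011453, and no pair of replicates agreed within sampling noise. Markers of heart muscle were abundant in every library, their summed level over 9 genes lying between 88844 and 104620 CPM (counts per 1000000 counted reads, scaled between libraries) in the 9 hearts without the virus and between 104453 and 120047 CPM in the 6 with it. The group medians of endothelial, macrophage and fibroblast markers were lower with it in CKD hearts of both genotypes. The summed level of 6 endothelial markers was 1623 to 1963 CPM without the virus and 1243 to 1483 CPM with it, and that of 7 macrophage markers was 310.4 to 556 CPM without it and 226.8 to 341 CPM with it. The 7 fibroblast markers summed to 894 to 1738 CPM without it and 796 to 1019 CPM with it. The 6 markers of pericytes and smooth muscle summed to 975 to 1392 CPM without it and 1001 to 1205 CPM with it. The 4 erythrocyte markers summed to 35.6 to 96.2 CPM in WTCKD and 199.99 to 491 CPM in WTCKD + RNLS, which did not overlap, while they overlapped between KOCKD (48.0 to 344 CPM) and KOCKD + RNLS (66.9 to 274 CPM) and were 64.5 to 578 CPM in WTSHAM. The summed level of 8 markers of T, B and NK cells stayed between 1.92 and 7.33 CPM in all hearts. Atrial markers varied between hearts of all groups, from 84.7 to 2649 CPM summed over 5 genes. In such bulk tissue, fewer cells of a type and less RNA per cell cannot be told apart, and the part of these shifts in the results on the clock regulators was not tested. Renalase itself was not analysed here, so genotype and virus rest on the labels. The count columns of all 3 KOCKD + RNLS hearts carry a name prefix that is also on WTSHAM replicate 1 and WTCKD + RNLS replicate 3, and whether any column is mislabelled was not tested.

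Some libraries stood apart from their group in the clock genes. WTSHAM replicate 1 had an Arntl level of 7.67 CPM against 21.4 and 32.6 CPM in the other sham hearts, and KOCKD replicate 3 had 9.99 CPM against 23.4 and 24.5 CPM. Values without 1 of these hearts are given beside the comparisons that hold it.

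For 7 of the 8 genes a promoter window, from 250 bases before to 50 bases after a RefSeq gene start, was at hand in build GRCm38.p6; Bhlhe40 had none and Tef had 2. The stretches below are shown because they hold the E-box CACGTG, on which BMAL1 acts, or the elements of the clock's other arms, and capitals mark these motifs. The stretch of Ciart lies on the minus strand at chr3:95882247-95882364 and holds 3 E-boxes, which begin 116, 58 and 44 bases before the gene start, so that the last pair begins 14 bases apart. The Tef stretches lie on the plus strand at chr15:81802526-81802571 and chr15:81811256-81811301, that of Bhlhe41 on the minus strand at chr6:145865548-145865593, that of Nfil3 on the minus strand at chr13:52981040-52981071 and that of Hlf on the minus strand at chr11:90390918-90390946.
Ciart, 3 E-boxes: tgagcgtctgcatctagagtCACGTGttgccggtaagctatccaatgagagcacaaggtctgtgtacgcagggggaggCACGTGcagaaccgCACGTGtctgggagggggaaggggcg
Tef, first start, E-box: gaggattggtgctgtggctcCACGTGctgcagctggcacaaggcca
Tef, second start, E-box: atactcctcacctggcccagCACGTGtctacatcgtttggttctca
Bhlhe41, E-box: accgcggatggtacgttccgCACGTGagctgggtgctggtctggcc
Nfil3, ROR element: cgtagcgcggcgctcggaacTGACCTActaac
Hlf, CRE: tcggcgcgcggtgcgggcccTGACGTCAc

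Both strands of every window were searched. CACGTG occurred in windows of Ciart, Tef and Bhlhe41 and in 7.15% of all 32851 mouse promoter windows of 300 bases. At least 3 copies, as in Ciart, occurred in 29 windows of the genome, or 0.0883%. The ROR and REV-ERB element TAGGTCA, read in Nfil3 on the strand of the gene as TGACCTA, was in 2.61% of all windows, and the cyclic AMP element TGACGTCA, found in Hlf, in 1.79%. The E-box variant CACGTT, present in 4.68% of all windows, and the D-box forms TTATGTAA, TTACGTAA, TTACATAA and TTATATAA, present in 1.59%, were in no window of these genes. The windows of Dbp and Rora held none of the motifs. These are matches of letters, and elements elsewhere in the genes were not searched.

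Levels differed widely between the 8 genes. Per length, over all 15 hearts, Dbp averaged 35.97 ± 25.5 FPKM (SD), Tef 28.6 ± 13.9 and Bhlhe40 20.6 ± 4.22. Hlf averaged 6.45 ± 3.75 FPKM, Bhlhe41 5.69 ± 1.84, Nfil3 4.11 ± 1.27, Ciart 3.97 ± 3.45 and Rora 2.31 ± 0.34. The order changed with the group: Tef averaged 20.7 FPKM and Dbp 18.8 in WTSHAM, whereas in WTCKD Bhlhe40 averaged 18.8 FPKM, Tef 15.6 and Dbp 11.4. The order by variation was another one. From the lowest to the highest heart, the CPM of Ciart spanned 44.2-fold and that of Dbp 14.7-fold, while Bhlhe40 spanned 1.86-fold and Rora 1.63-fold. The spread within groups differed as much, with a biological coefficient of variation of 0.54 for Ciart and 0.45 for Dbp against 0.10 for Rora and 0.13 over all genes. In mm9, 491 of the 2945 exonic bases of Dbp overlap Sphk2 on the other strand, and Tef, Bhlhe40 and Rora share 193, 118 and 82 exonic bases with opposite-strand genes. The strand option of the read counting was not given in the sources used here, so reads of these stretches may count for either gene.

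**Figure D1:**
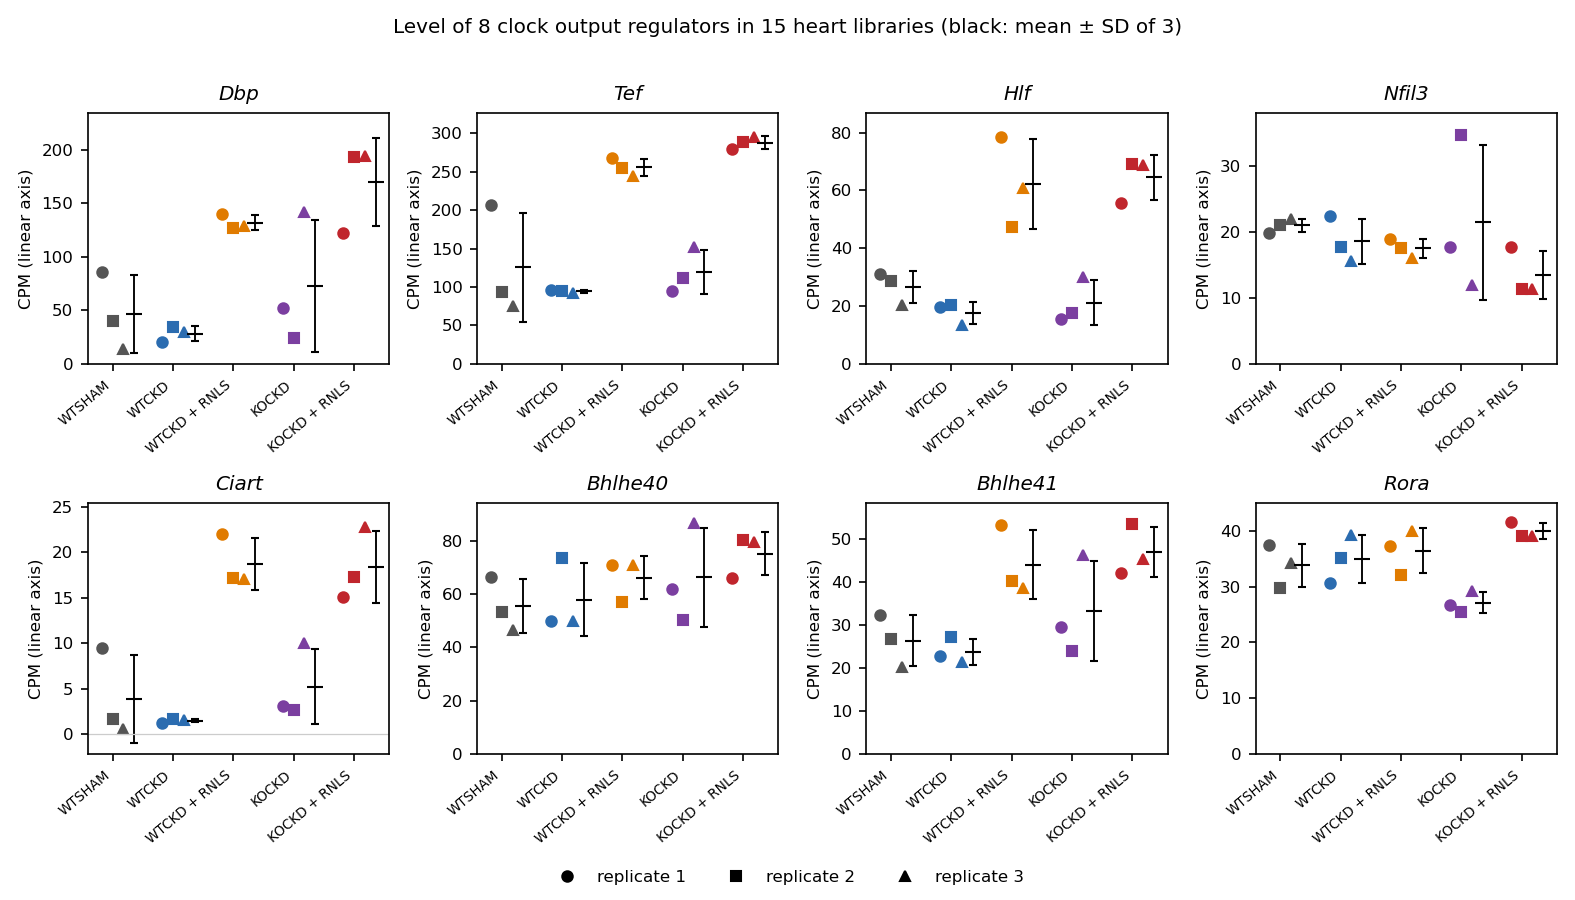
Level of each gene in CPM (linear axis) in each heart, coloured by group, with the marker shape giving the replicate number and black bars the group mean ± SD of 3 hearts. Dbp, Tef, Hlf, Ciart and Bhlhe41 sit higher in the 3 WTCKD + RNLS hearts than in the 3 WTCKD hearts, and Rora is lower in the 3 KOCKD hearts (25.5 to 29.2 CPM) than in every other heart.

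Tef, a PAR bZIP activator, separated treated from untreated hearts without overlap. In CPM, Tef was 207.3, 94.0 and 75.3 in the WTSHAM hearts, 96.5, 95.04 and 92.6 in WTCKD and 94.9, 112.2 and 151.5 in KOCKD. It was 267.3, 255.1 and 245.1 CPM in WTCKD + RNLS and 279.8, 288.4 and 295.7 CPM in KOCKD + RNLS. All 6 hearts with the virus lay above all 9 without it, and the WTSHAM heart at 207.3 CPM was the nearest to them.

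Hlf, its relative, showed the same split at a lower level. Hlf stood at 30.9, 28.6 and 20.4 CPM in WTSHAM, 19.5, 20.3 and 13.4 CPM in WTCKD and 15.7, 17.6 and 30.1 CPM in KOCKD. With the virus it stood at 78.6, 47.4 and 60.9 CPM in wild-type hearts and 55.5, 69.3 and 68.9 CPM in knockout hearts. No heart with the virus overlapped one without it.

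Dbp, the other PAR bZIP activator, varied more between hearts of a group. Its level was 85.5, 40.2 and 13.2 CPM in WTSHAM, 20.2, 34.1 and 29.9 CPM in WTCKD and 52.2, 23.7 and 142.1 CPM in KOCKD. It was 140.4, 126.8 and 128.7 CPM in WTCKD + RNLS and 122.0, 193.3 and 194.1 CPM in KOCKD + RNLS. The KOCKD heart at 142.1 CPM fell among the treated hearts, and it was the only untreated heart to do so.

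Ciart, a repressor of BMAL1, had the widest range. Its level was 9.42, 1.65 and 0.52 CPM in WTSHAM, 1.27, 1.65 and 1.53 CPM in WTCKD and 3.06, 2.61 and 9.99 CPM in KOCKD. With the virus it was 22.03, 17.2 and 17.0 CPM in wild-type and 15.1, 17.3 and 22.8 CPM in knockout hearts. All treated hearts lay above all untreated ones, and the highest untreated ones were again WTSHAM replicate 1 and KOCKD replicate 3.

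The DEC genes split. Bhlhe41 was at 32.3, 26.8 and 20.2 CPM in WTSHAM, 22.7, 27.3 and 21.5 CPM in WTCKD, 29.6, 23.9 and 46.4 CPM in KOCKD, 53.3, 40.3 and 38.6 CPM in WTCKD + RNLS and 42.3, 53.5 and 45.3 CPM in KOCKD + RNLS. Bhlhe40 was at 66.4, 53.3 and 46.6 CPM in WTSHAM, 49.96, 73.5 and 49.94 CPM in WTCKD, 61.9, 50.2 and 86.7 CPM in KOCKD, 70.8, 56.8 and 70.8 CPM in WTCKD + RNLS and 66.1, 80.1 and 79.4 CPM in KOCKD + RNLS. Bhlhe41 was above its highest WTSHAM or WTCKD value in every treated heart, but KOCKD replicate 3, at 46.4 CPM, lay among the treated hearts. The Bhlhe40 levels of all 5 groups overlapped.

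Nfil3, the repressor that competes with the PAR bZIP activators, ran in a narrow band in most groups. It was at 19.8, 21.1 and 21.9 CPM in WTSHAM, 22.3, 17.7 and 15.6 CPM in WTCKD and 18.9, 17.5 and 16.0 CPM in WTCKD + RNLS. In KOCKD it spread over 17.7, 34.6 and 12.0 CPM, and in KOCKD + RNLS it was at 17.6, 11.3 and 11.3 CPM. The highest and the third-lowest of all 15 values thus came from KOCKD hearts.

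Rora was the steadiest gene. It was at 37.5, 29.8 and 34.3 CPM in WTSHAM, 30.6, 35.2 and 39.2 CPM in WTCKD, 37.4, 32.1 and 40.04 CPM in WTCKD + RNLS, 26.7, 25.5 and 29.2 CPM in KOCKD and 41.7, 39.2 and 39.2 CPM in KOCKD + RNLS. The 3 KOCKD hearts were the 3 lowest of the 15.

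Ranked by mean, KOCKD + RNLS was the highest group for Dbp, Tef, Hlf, Bhlhe40, Bhlhe41 and Rora, WTCKD + RNLS was highest for Ciart and KOCKD for Nfil3. WTCKD was the lowest group for Dbp, Tef, Hlf, Ciart and Bhlhe41. Most neighbours in these orders overlapped. The share of all genes without overlap between groups was not computed, so every lack of overlap given in this text is a description. With 3 against 3 hearts, an exact two-sided permutation test gives 0.1 even for full separation. Among all neighbouring groups of the 8 orders, the hearts did not overlap between KOCKD + RNLS and WTCKD + RNLS for Tef, between WTCKD + RNLS and WTSHAM for Tef and Hlf, between KOCKD + RNLS and KOCKD for Ciart, and between WTSHAM and KOCKD for Rora.

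The renalase virus in wild-type CKD hearts was the first comparison that the members were selected on. From WTCKD (28.0 ± 7.11 CPM, SD, n = 3) to WTCKD + RNLS (132.0 ± 7.37), Dbp differed by a log2 fold change of 2.24 with a standard error (SE) of 0.56. The log2 fold change was 3.65 (SE 0.69) for Ciart, 1.81 (SE 0.24) for Hlf, 1.43 (SE 0.26) for Tef and 0.89 (SE 0.21) for Bhlhe41, and for none of these genes did the groups overlap. It was -0.09 for Nfil3 with a 95% interval from -0.68 to 0.50, 0.20 for Bhlhe40 (-0.21 to 0.60) and 0.06 for Rora (-0.18 to 0.30), with overlapping groups. At an adjusted p under 0.05 in edgeR's quasi-likelihood test, 5 of the 8 were called, all higher, where 4.47% of the 13021 genes were called. The choice of members used this contrast, and nothing is read from that count. Without 1 library at a time, between 3 and 5 members stayed past the threshold; Dbp held it only without WTCKD + RNLS replicate 2 (log2 fold change 2.25) and Bhlhe41 in 2 of 6 such fits, without WTCKD + RNLS replicate 2 (0.93) or 3 (0.98).

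The renalase virus in knockout CKD hearts was the second. Hlf stood at 21.1 ± 7.85 CPM in KOCKD and 64.6 ± 7.85 CPM in KOCKD + RNLS, with a log2 fold change of 1.60 (SE 0.24), Tef from 119.5 ± 29.0 to 287.9 ± 7.97 CPM (1.27, SE 0.26) and Ciart from 5.22 ± 4.14 to 18.4 ± 3.94 CPM (1.79, SE 0.58). Rora went from 27.1 ± 1.86 to 40.02 ± 1.45 CPM (0.56, SE 0.11). These 4 of 8 were called, all higher and without overlap, where 16.1% of all genes were called, and again the count is a description. The log2 fold change was 1.22 for Dbp (95% interval 0.09 to 2.35), 0.49 for Bhlhe41 (0.05 to 0.94), 0.18 for Bhlhe40 (-0.22 to 0.58) and -0.66 for Nfil3 (-1.26 to -0.06), none of them called and all with overlapping groups. Without KOCKD replicate 3, the values moved to 2.16 for Dbp, 2.69 for Ciart, 0.82 for Bhlhe41 and -0.95 for Nfil3, and 7 of the 8 members were called, all but Bhlhe40, with Nfil3 lower, where 11.2% of the genes tested in that fit were called. Without KOCKD replicate 2 in its place, Nfil3 moved to -0.13 and Dbp to 0.81. Ciart was called in 1 of the 6 fits without 1 library, the one without KOCKD replicate 3.

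**Figure D2:**
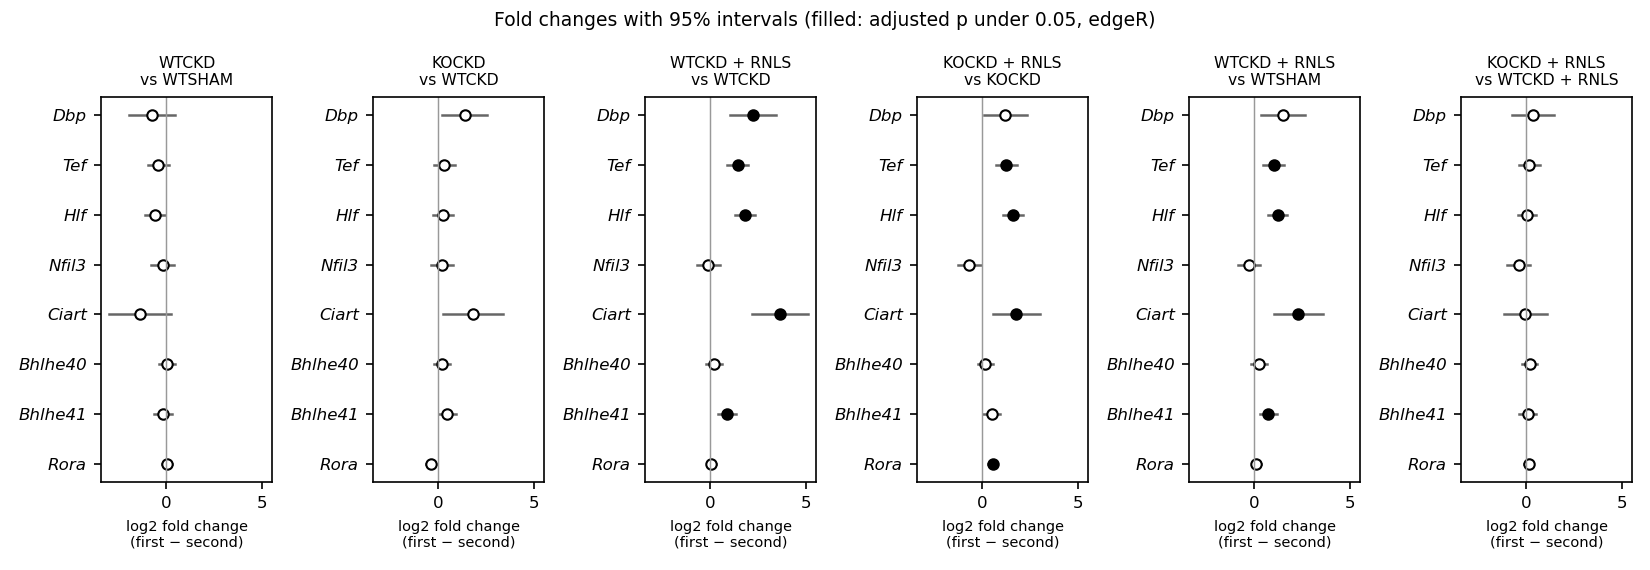
Log2 fold change (first group minus second) of each gene in 6 comparisons, with 95% intervals; filled points are called at an adjusted p under 0.05 in edgeR's quasi-likelihood test over 13021 genes. Filled points appear in the comparisons with the virus, 5, 4 and 4 of them, and none in WTCKD against WTSHAM, KOCKD against WTCKD or KOCKD + RNLS against WTCKD + RNLS.

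How the genotypes compared in their response to the virus was tested as a difference between these effects, which rests on the same 12 hearts. No gene was called, 0 of 13021 (0%), by edgeR's quasi-likelihood test, although 2288 genes had an unadjusted p under 0.05 and DESeq2 called 359. Of the members only Rora had an unadjusted p under 0.05, with a difference of 0.50 on the log2 scale (SE 0.16, knockout minus wild type, adjusted p = 0.160). The difference was -1.86 for Ciart (SE 0.92, adjusted p = 0.301) and -1.02 for Dbp (SE 0.76, adjusted p = 0.514). KOCKD replicate 3 set much of both, since without it the difference was -0.96 for Ciart and -0.076 for Dbp, and it was -0.87 for Nfil3. The 95% intervals of Tef (-0.93 to 0.60), Hlf (-0.92 to 0.50), Bhlhe40 (-0.59 to 0.55), Bhlhe41 (-1.03 to 0.24) and Nfil3 (-1.42 to 0.26) all held 0 and were wide, so that unequal responses remain possible for these genes. DESeq2 called none of the members, but it gave no adjusted p for Ciart and Nfil3, which therefore could not be called.

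**Figure D3:**
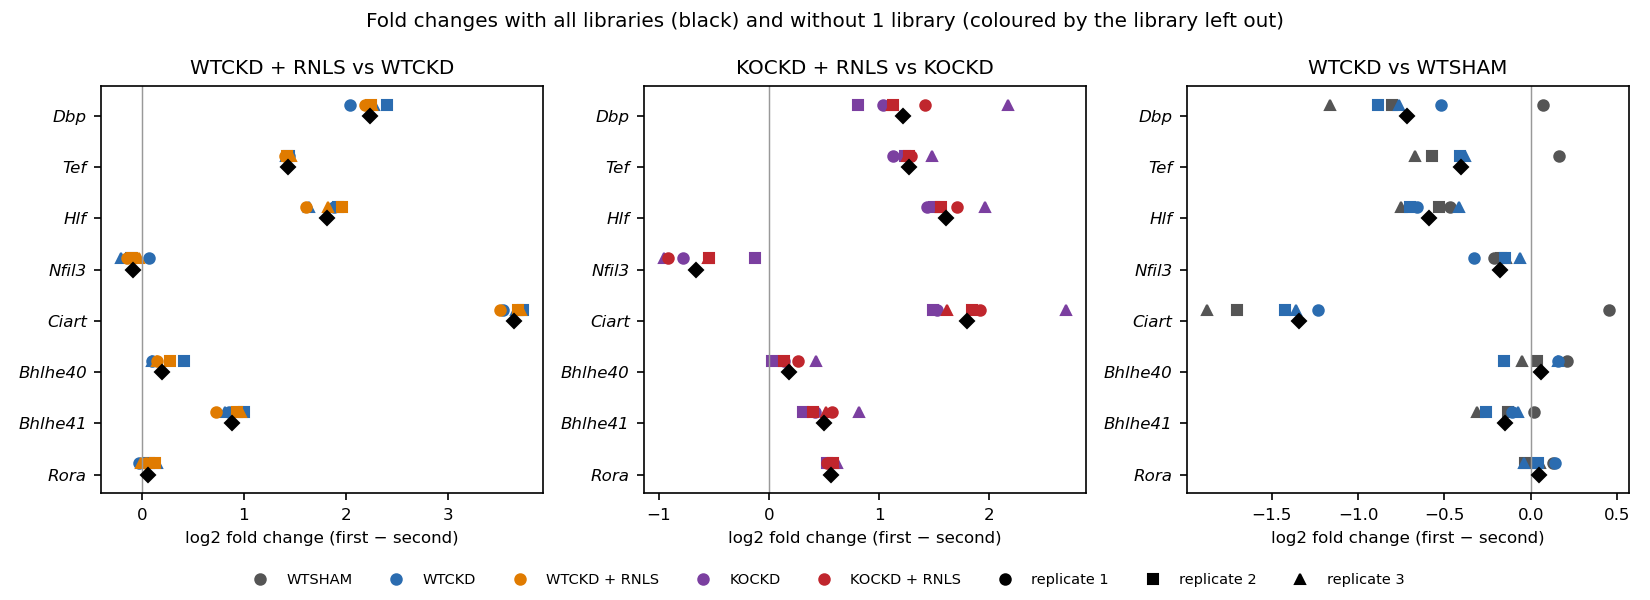
Log2 fold change of each gene with all libraries (black diamonds) and with 1 library left out (coloured by its group, shape by replicate). In knockout hearts, leaving out KOCKD replicate 3 moves Dbp to 2.16 and Ciart to 2.69; in WTCKD against WTSHAM, leaving out WTSHAM replicate 1 moves Tef from -0.40 to 0.16 and Ciart from -1.34 to 0.45.

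CKD with the control vector was compared with sham in wild-type hearts, WTCKD against WTSHAM, so that CKD and the vector cannot be told apart. None of the 8 members was called by edgeR's quasi-likelihood test, where 2.3% of the 13021 genes were, nor by DESeq2, and 1 member had an unadjusted p under 0.05. That member was Hlf, at 26.7 ± 5.55 CPM in WTSHAM and 17.7 ± 3.803 CPM in WTCKD, with a log2 fold change of -0.59 (SE 0.25, adjusted p = 0.222) without overlap of the groups. The log2 fold change was -1.34 for Ciart (SE 0.76, adjusted p = 0.391), -0.72 for Dbp (SE 0.56, adjusted p = 0.551) and -0.40 for Tef (SE 0.26, adjusted p = 0.454). Over the members the median was -0.29, against -0.01 over all genes. The choice of members had used the WTCKD hearts, so the median and the counts here are descriptions. WTSHAM replicate 1 set the sign of the fold change of several members. Without that heart the log2 fold change was 0.45 for Ciart, 0.07 for Dbp, 0.16 for Tef and 0.02 for Bhlhe41, while that of Hlf stayed between -0.75 and -0.41 whichever library was left out. Nfil3 (-0.18, 95% interval -0.76 to 0.41), Bhlhe40 (0.06, -0.34 to 0.47) and Rora (0.05, -0.19 to 0.29) had intervals on both sides of 0.

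The genotypes were also compared under CKD with the vector, KOCKD against WTCKD. No gene of 13021 (0%) was called by edgeR's quasi-likelihood test, while 1318 had an unadjusted p under 0.05 and DESeq2 called 8, none of them a member. Rora was lower in every KOCKD heart than in any WTCKD heart, 27.1 ± 1.86 against 35.0 ± 4.31 CPM, a log2 fold change of -0.37 (SE 0.11, adjusted p = 0.444). Ciart was higher in every KOCKD heart, 5.22 ± 4.14 against 1.48 ± 0.20 CPM, a log2 fold change of 1.83 (SE 0.74, adjusted p = 0.464). For Dbp it was 1.38 (SE 0.56, adjusted p = 0.464) and for Bhlhe41 0.49 (SE 0.22, adjusted p = 0.487), with overlapping groups. These 4 members had an unadjusted p under 0.05. Without KOCKD replicate 3 the log2 fold change was 0.93 for Ciart, 0.44 for Dbp and 0.17 for Bhlhe41, while that of Rora stayed between -0.46 and -0.28 over all fits without 1 library. Under the study's own rule, an unadjusted p under 0.05 and a minimum fold change, 4 members passed, where 5.62% of all genes did. The choice of members had used the hearts of both groups, so this count is a description.

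Treated wild-type CKD hearts were set against sham hearts, a comparison that shares the WTCKD + RNLS hearts with the first one. The choice of members had used those treated hearts, so the count and the p-values here are a description. By edgeR's quasi-likelihood test 4 of 8 members were higher, where 7.69% of all genes were called. Hlf rose from 26.7 ± 5.55 to 62.3 ± 15.7 CPM (log2 fold change 1.23, SE 0.23, adjusted p = 0.0048), Tef from 125.5 ± 71.4 to 255.8 ± 11.1 CPM (1.03, SE 0.26, adjusted p = 0.0238), Ciart from 3.86 ± 4.85 to 18.7 ± 2.85 CPM (2.31, SE 0.60, adjusted p = 0.0284) and Bhlhe41 from 26.4 ± 6.02 to 44.1 ± 8.06 CPM (0.74, SE 0.21, adjusted p = 0.0438). The groups overlapped for none of them, which is a description, since the share of all genes without overlap was not computed. Dbp (1.52, SE 0.54, adjusted p = 0.0999) and Nfil3 (-0.26, SE 0.28, adjusted p = 0.602) also did not overlap but were not called. Without WTSHAM replicate 1, the log2 fold change was 4.10 for Ciart, 2.31 for Dbp and 1.60 for Tef. Without WTSHAM replicate 3 it was 1.78, 1.08 and 0.77, and Ciart, Tef and Bhlhe41 each passed the threshold in 2 of 6 fits without 1 library, while Hlf passed it in 6 of 6.

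Treated hearts of the genotypes lay close together. In KOCKD + RNLS against WTCKD + RNLS no member was called by edgeR's quasi-likelihood test, where 0.338% of all genes were, no member had an unadjusted p under 0.05, and DESeq2 called none. Tef alone did not overlap, 287.9 ± 7.97 against 255.8 ± 11.1 CPM, with a log2 fold change of 0.17 (95% interval -0.37 to 0.71, adjusted p = 0.799). The 95% interval was -0.74 to 1.47 for Dbp and -1.15 to 1.09 for Ciart, so that differences of 2-fold were not excluded at this spread for these genes. It was -0.11 to 0.37 for Rora, -0.22 to 0.58 for Bhlhe40 and -0.43 to 0.53 for Hlf.

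The core loop, whose products drive the members, was read from a list of 18 genes, of which 17 were tested. Arntl, the gene of BMAL1, was at 20.5 ± 12.5 CPM in WTSHAM, 31.8 ± 1.96 in WTCKD, 19.3 ± 8.07 in KOCKD, 1.88 ± 0.56 in WTCKD + RNLS and 1.51 ± 0.11 in KOCKD + RNLS. In wild-type hearts with the virus 4 of 17 were called higher and 3 lower, where 4.47% of all genes were called, and in knockout hearts 16.1% of all genes were called. The core list was also chosen with earlier results known, so its counts are descriptions. The higher ones were the repressor genes Per2 (log2 fold change 3.07), Per3 (2.12), Cry2 (0.74) and Nr1d2 (0.77), and the lower ones the activator genes Arntl (-4.06), Npas2 (-1.92) and Clock (-0.68). In knockout hearts 7 were called higher, among them Per1 (1.502), Per2 (2.37), Per3 (1.87), Cry2 (0.73) and Nr1d2 (0.65), and 2 lower, Arntl (-3.66) and Nr1d1 (-1.13). Clock was at -0.36, Npas2 at -0.91 and Cry1 at 0.51 in knockout hearts, not called, and Per1 at 0.88, Cry1 at 0.61 and Nr1d1 at -0.46 in wild-type hearts, not called. The other 2 higher ones, Csnk1e (0.43) and Timeless (0.55), are named after their values were seen. In WTCKD against WTSHAM, Timeless fell by 1.01 (SE 0.17, adjusted p = 0.0042 by edgeR's quasi-likelihood test), also named after its values were seen. In KOCKD against WTCKD 0 of 17 were called by that test and 0 by DESeq2, which called 0 and 8 of all genes. At an unadjusted p under 0.05 in edgeR's test were 2, Npas2 (-1.24) and Csnk1e (-0.28), beside 1318 of all 13021 genes.

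Within groups most of the members moved against Arntl. After the group means were removed, Pearson's r of log2 CPM with Arntl over 15 libraries was -0.96 for Ciart (Spearman's rho -0.90), -0.94 for Tef (rho -0.97), -0.86 for Dbp (rho -0.74), -0.84 for Bhlhe41 (rho -0.88), -0.71 for Hlf (rho -0.72) and -0.68 for Bhlhe40 (rho -0.67). It was -0.32 for Rora (rho -0.15) and 0.40 for Nfil3 (rho 0.31). WTSHAM replicates 1 and 3 had the most extreme deviations of Arntl from its group means. Without them, r was -0.91 for Ciart, -0.86 for Tef and -0.73 for Dbp. The group means were not recomputed and KOCKD replicate 3 stayed in, so whether r holds without the hearts that stood apart was not tested. These values share libraries, depth and scaling, much of the spread comes from WTSHAM and KOCKD hearts, and they are descriptions.

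**Figure D4:**
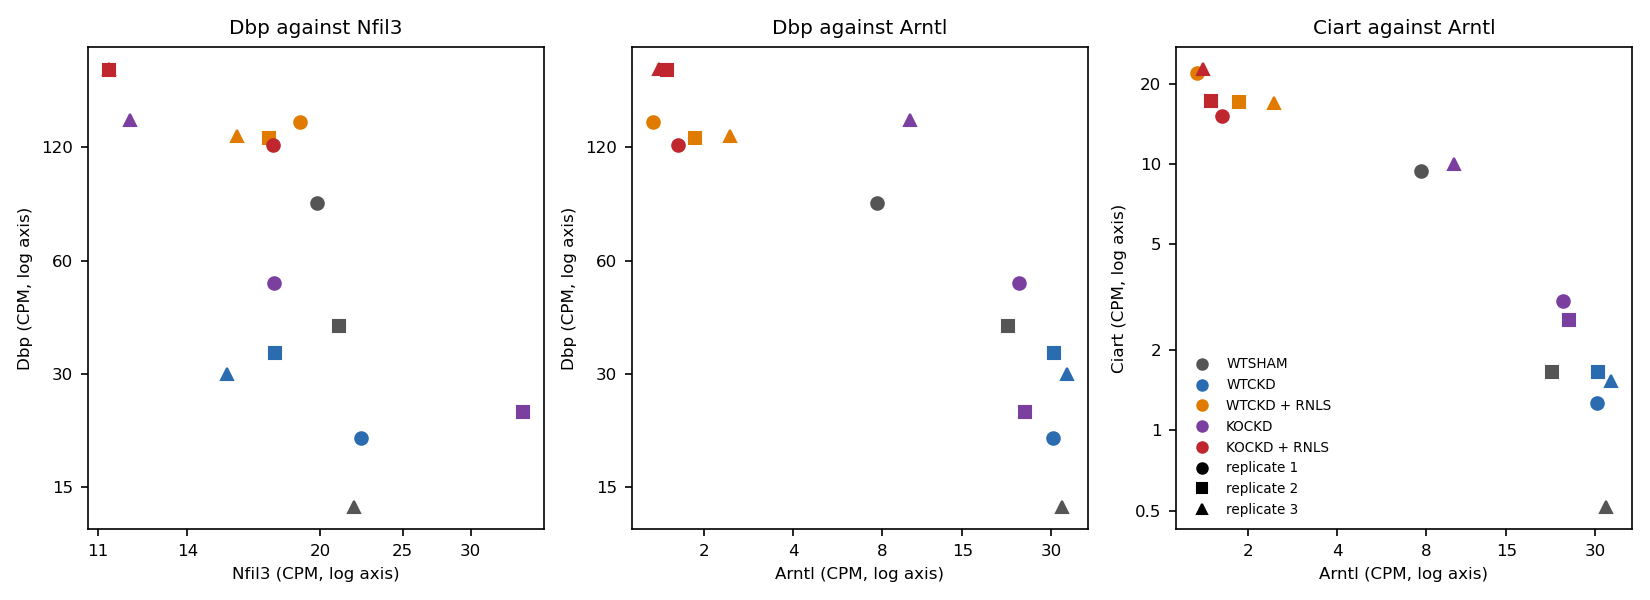
Levels in CPM (log axes) of Dbp against Nfil3, Dbp against Arntl and Ciart against Arntl in 15 hearts, coloured by group with shapes for replicates. WTSHAM replicate 1 (Arntl 7.67 CPM, Ciart 9.42 CPM) and KOCKD replicate 3 (Arntl 9.99 CPM, Ciart 9.99 CPM) lie between the other untreated hearts and the treated ones.

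Most of the members also moved with each other inside groups. Among Dbp, Tef, Hlf, Ciart, Bhlhe40 and Bhlhe41, the 15 within-group values of r ran from 0.58 to 0.96 with a median of 0.78. The highest were Tef with Ciart (0.96, rho 0.91) and Dbp with Ciart (0.91, rho 0.86). Nfil3 had a negative r with all 7 others, from -0.73 (Dbp, rho -0.69) to -0.24 (Tef, rho -0.27), but its rho with Hlf was -0.01. KOCKD replicates 2 and 3 were the 2 libraries with the most extreme deviations of Nfil3 from its group means. Without them, r with Nfil3 moved from -0.63 to -0.14 for Bhlhe41, from -0.68 to -0.37 for Bhlhe40 and from -0.45 to -0.21 for Ciart. The group means were not recomputed for these values either. The 6 values of Rora with members other than Nfil3 lay between 0.12 and 0.44.

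**Figure D5:**
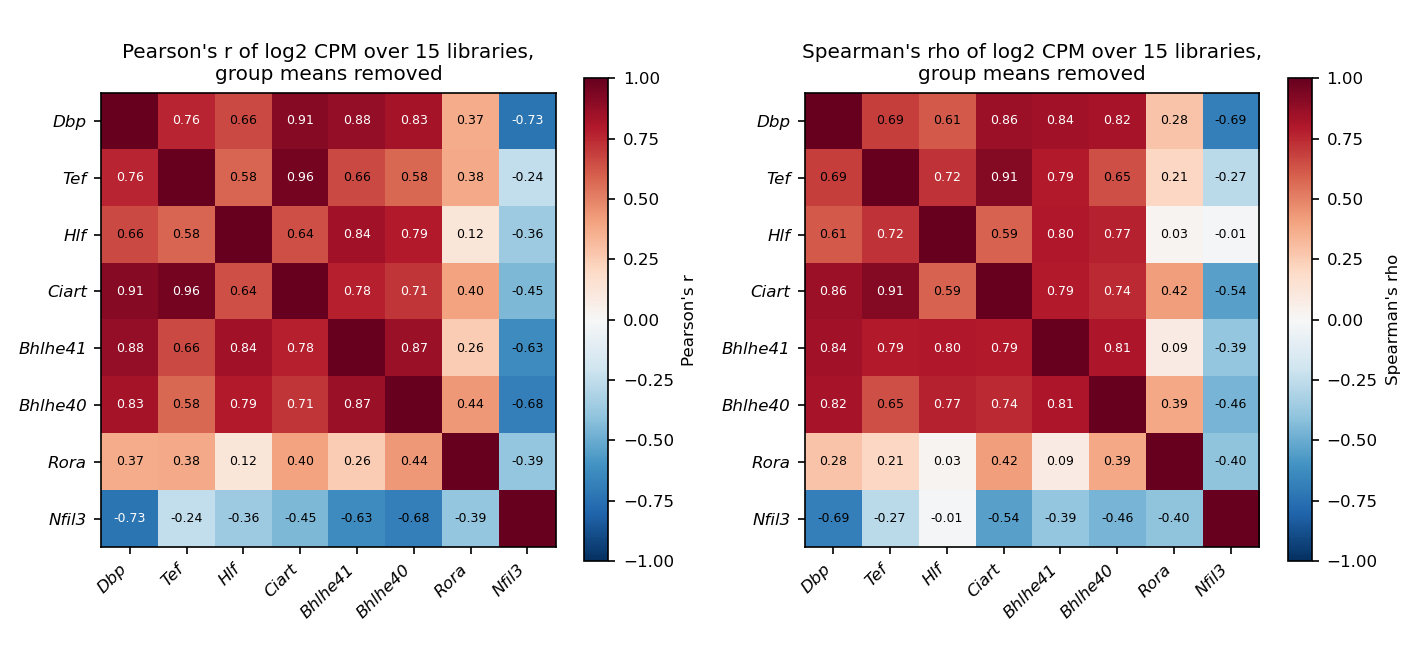
Pearson's r and Spearman's rho between the log2 CPM of each pair of genes over 15 libraries after removing group means, as a description. Tef and Ciart reach an r of 0.96, Nfil3 has a negative r with all others and Rora is weakly related to the rest.

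Ratios of activator to repressor transcripts were computed from these levels, and neither protein nor binding to the D-box was measured. Their size depends on the gene length used. For Nfil3 the FPKM imply 4463 bases, against 2026 exonic bases in the mm9 annotation, and the ratios were not tested at another length. Per length, Dbp exceeded Nfil3 by 1.09 to 7.75 times in WTSHAM, 1.63 to 3.46 times in WTCKD and 1.23 to 21.3 times in KOCKD. With the virus the ratio was 13.1 to 14.5 in wild-type hearts and 12.5 to 30.8 in knockout hearts. For Tef and Nfil3 it was 2.36 to 9.19 in all untreated hearts and 10.3 to 19.0 in all treated hearts, which did not overlap, whereas the Dbp ratio of KOCKD replicate 3 lay among the treated hearts.

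Known outputs of the clock in heart and liver were read from a list of 14 genes, all tested. In wild-type hearts with the virus 5 were called higher and 3 lower, where 4.47% of all genes were called. In knockout hearts 4 were higher and 3 lower, where 16.1% of all genes were called. In both, 6 genes of the list were called with the same sign, and the share of all genes so called was not computed. Pdk4, which restrains glucose oxidation, had log2 fold changes of -3.35 in wild-type and -1.93 in knockout hearts, Ucp3, a mitochondrial carrier linked to fatty acid use, -2.59 and -1.41, and the cell-cycle inhibitor Cdkn1a -1.48 and -1.54. Wee1, a cell-cycle kinase under E-box control, had 1.40 and 1.34, Pik3r1, a regulatory subunit of PI3-kinase, 1.17 and 0.71, and the ubiquitin protease Usp2 0.97 and 0.66. In WTCKD against WTSHAM 2 of the 14 were higher, Klf15 (0.55) and Kcnip2 (0.50), named after their values were seen, and 1 was lower, Pik3r1 (-0.79, SE 0.14, adjusted p = 0.0061 by edgeR's quasi-likelihood test). Of all genes 2.3% were called in WTCKD against WTSHAM. The list was written with earlier results of these data known.

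Among genes other than the members, those most like 4 of the members were ranked by Pearson's r of log2 CPM over 15 libraries among 11719 genes. The nearest to Dbp were Tcap, which encodes the Z-disc protein telethonin (r = 0.97, within groups 0.99) and is on the output list, Nr1d2 of the core loop list (0.96, within groups 0.89) and Tspan4 (0.91, within groups 0.77). Tcap itself was at 1173 ± 387 CPM in WTSHAM, 1091 ± 82.9 in WTCKD, 1978 ± 107.4 in WTCKD + RNLS, 1547 ± 617 in KOCKD and 1845 ± 149.0 in KOCKD + RNLS. The nearest to Rora were the phosphodiesterase gene Pde4d (0.92), the thyroid hormone receptor gene Thrb (0.92) and Phactr4 (0.91). Like Rora, Thrb was low in KOCKD, at 16.3 ± 0.48 CPM, and at 22.9 ± 1.059 in WTSHAM, 22.3 ± 1.92 in WTCKD, 23.4 ± 1.92 in WTCKD + RNLS and 26.6 ± 0.92 in KOCKD + RNLS. The nearest to Bhlhe40 was Myh7, the slow myosin heavy chain (0.86), followed by Rhpn2 and Stx3 (0.82 each), and Myh7 ranged from 134.5 CPM in a KOCKD heart to 2072 CPM in a KOCKD + RNLS heart. The nearest to Nfil3 were Armc1 (0.81), P4hb (0.81) and Pla2g7 (0.77). Without KOCKD replicate 2 and KOCKD + RNLS replicate 2, whose Nfil3 levels lay farthest from its median, these values fell to 0.63, 0.72 and 0.63. The ranking picks the highest of many values, and the groups shape most of them.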

How the data were processed

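Hearts of 5 groups of 3 mice were measured by RNA-seq, and the groups rest on the sample labels. Per the labels and the study's methods, the authors used Trimmomatic for trimming, hisat2 for mapping and htseq-count for counting. They deposited raw counts per gene and also FPKM per library made with cufflinks. The methods name mm9 and the submitters' processing notes GRCm39, and versions, annotation and strand option were not given in the sources used here. Libraries were made with a stranded mRNA kit and sequenced on either of a pair of instruments, with no record here of which library ran on which.

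Counts were analysed with R 4.3.3 and edgeR 4.0.16: libraries were scaled by TMM, low genes dropped by filterByExpr (minimum count 10, minimum total 15), and 1 quasi-likelihood model of the groups was fitted to all 15 libraries, with contrasts for 7 comparisons and Benjamini-Hochberg adjustment over 13021 genes. CPM are TMM-scaled, log2 CPM used a prior count of 2, and intervals are 95%. Totals of 10480788 to 13424078 counts limit low genes such as Ciart most. DESeq2 1.42.0, limma 3.58.1 on log2 of FPKM + 1, other scalings and filters, the study's rule and leaving out each library were alternatives. Scripts were tested on simulated data. With 3 against 3 hearts an exact two-sided permutation test cannot go below 0.1. Each gene was therefore tested with the quasi-likelihood model, which draws on all genes for its spread, and smaller p-values rest on that model. No column of the table lacked a sample.

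Members and lists were chosen with earlier results of these data known. Every comparison shares hearts with the renalase comparisons behind the choice of members, so all counts of members called are descriptions. All 8 members are named in every comparison, with 10 core loop genes, the outputs called in both renalase comparisons (at most 6) and the 3 genes of most similar pattern for 4 members. The p-values weigh a difference between groups against the spread between these mice. A result on 1 gene of the core loop list is not reported here.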

Additional observations from a re-analysis of the deposited data

How the results depend on the processing

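Directions of the called members held in all comparisons under other scalings, no filter, DESeq2 and limma; DESeq2 called 5, 3 and 4 members in the 3 comparisons with calls, where it called 893, 2401 and 1364 of all genes. With limma on FPKM, 3 members were called in WTCKD + RNLS against WTCKD, where Dbp and Bhlhe41 were lost and 3.91% of all genes were called, and a fit on the compared libraries alone called 1 in WTCKD + RNLS against WTSHAM (2.33% of all). The study's cut-offs were applied to p-values of edgeR's quasi-likelihood test, not to those of DESeq as in the study. They passed 1 member in WTCKD against WTSHAM (11.3% of all genes), 7 in KOCKD + RNLS against KOCKD (22.3%), 4 in KOCKD against WTCKD (5.62%) and 1 in the difference of the RNLS effect (15.2%). The cause was not tested. Limma turned the sign for Rora in WTCKD + RNLS against WTCKD (-0.0065), Bhlhe40 in the difference (0.078) and Ciart in KOCKD + RNLS against WTCKD + RNLS (0.028). The median of all genes moved by at most 0.08 (log2) in size under RLE scaling or limma on FPKM. Low counts limit Ciart most.

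Leaving out each library in turn, 3 to 5 members were called in WTCKD + RNLS against WTCKD, 3 to 7 in KOCKD + RNLS against KOCKD and 1 to 5 in WTCKD + RNLS against WTSHAM, with 0 in the other comparisons; of all genes 209 to 761, 862 to 1476 and 427 to 1495 were called in these 3. The signs that turned were of values that were not called. In WTCKD against WTSHAM the log2 fold change ran from -1.16 to 0.069 for Dbp, -0.67 to 0.16 for Tef, -1.87 to 0.45 for Ciart, -0.15 to 0.21 for Bhlhe40, -0.31 to 0.021 for Bhlhe41 and -0.038 to 0.14 for Rora. In WTCKD + RNLS against WTCKD it ran from -0.20 to 0.065 for Nfil3 and -0.031 to 0.15 for Rora. In KOCKD against WTCKD it ran from -0.092 to 0.43 for Hlf, -0.33 to 0.49 for Nfil3 and -0.045 to 0.40 for Bhlhe40. For the difference of the RNLS effect it ran from -0.30 to 0.040 for Tef, -0.38 to 0.14 for Hlf and -0.22 to 0.23 for Bhlhe40, and in KOCKD + RNLS against WTCKD + RNLS from -0.10 to 0.25 for Hlf, -0.21 to 0.10 for Ciart and -0.0079 to 0.25 for Bhlhe41.

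The replicate numbers did not pair the samples: deviations from the group means correlated by -0.03, -0.07 and -0.01 on average between libraries of the same number and by 0.02 between different numbers. With the replicate block, 4, 3 and 3 members were called in the 3 comparisons with calls and 0 in the others, with 522, 1909 and 801 of all genes in the 3.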

Other observations

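The ratio of Bhlhe41 to Bhlhe40, which encode the paralogous DEC repressors, was computed per length within each heart. It was 0.24 ± 0.02 in WTSHAM (SD, n = 3), 0.21 ± 0.02 in WTCKD and 0.25 ± 0.02 in KOCKD, and 0.34 ± 0.06 in WTCKD + RNLS and 0.32 ± 0.03 in KOCKD + RNLS. The lowest treated heart, at 0.277, was above the highest untreated heart, at 0.272, and the KOCKD hearts lay between 0.242 and 0.272. The members were chosen with the treated groups in view, so this is a description.

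In the hearts that stood apart, the core loop genes did not all take the same side. Per2 was at 33.9 CPM in WTSHAM replicate 1 against 5.19 and 4.64 CPM in the other sham hearts, and at 13.3 CPM in KOCKD replicate 3 against 3.76 and 8.01 CPM. Nr1d1, the gene of REV-ERB alpha, was at 66.1 CPM in WTSHAM replicate 1, below the other sham hearts at 168.0 and 84.0 CPM, but at 254.6 CPM in KOCKD replicate 3, above the other KOCKD hearts at 226.8 and 113.5 CPM.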
